A study of Mus musculus with 17 samples.

Results

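Replication-dependent histone genes were followed in mouse germinal centre (GC) B cells as they were driven into rapid division and as they left it. The set held the 67 genes, of 21848 in the count matrices, named H1f1 to H1f5 or beginning with H2ac, H2bc, H3c or H4c and a number. It comprised 5 linker histone H1 genes, 18 H2A genes, 19 H2B genes, 12 H3 genes and 13 H4 genes. Which genes belong to the set follows from their symbols, and the set itself was taken up with earlier results of these data known. The cells were GC B cells sorted from lymph nodes of CD45.1/1 hosts that had been primed with OVA in alum, had received B1-8hi B cells (Igh B1-8hi/+, CD45.2/2), which are specific for the hapten NP, and were then immunized with NP-OVA in the footpad. In this model a minority of the transferred cells express the receptor DEC-205 and carry a division tracker (Col1a1 tetO-H2B-mCherry/WT with Vav-tTA), and the others are Ly75-/- and lack DEC-205. For the time course, the paper's legend describes the sequenced cells as DEC-205+ GC B cells. All cells given to a mouse were analysed here, and whether each expressed DEC-205 was not tested. At day 7 after immunization, treated mice received anti-DEC-OVA, an antibody that carries OVA to DEC-205 and so leads GC B cells with this receptor to present OVA to T follicular helper cells, and the other mice were untreated. In the time course, cells were taken at day 7 (0 h, 9 mice), day 9 (48 h, 6 untreated and 9 treated mice) and day 10 (72 h, 8 untreated and 7 treated mice), in 2 experiments of 1 library each. In a separate experiment, cells of 7 treated mice were sorted at 72 h by a DHB-tdTomato reporter of the cell cycle kinase CDK2, expressed from Rosa26. A cytoplasmic reporter marks CDK2hi cells and a nuclear reporter CDK2low cells. The CDK2hi cells of all mice formed 1 library and the CDK2low cells another, so that population and library cannot be told apart. The reporter cells carried Rosa26 DHB-tdTomato with or without an H2B-GFP transgene, and whether reads of the H2B fusions were counted for H2B genes was not tested. The study's methods give adult mice of both sexes on the C57BL/6J background, without saying which mouse was of which sex or age.

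Chromatin is built from an octamer of the core histones H2A, H2B, H3 and H4, and linker histone H1 binds the DNA where it enters and leaves this core. The replication-dependent genes supply these proteins when DNA is copied, are clustered in the genome, lack introns as a rule, and make mRNAs that end in a stem-loop rather than a poly(A) tail. The stem-loop is bound by SLBP, which governs the processing, translation and decay of these mRNAs, and the mRNAs are degraded when DNA synthesis ends. The libraries were 5′ single-cell libraries primed with oligo-dT, so the values cover the transcripts that such priming captured and not the whole histone mRNA pool. How capture differed between genes or groups was not tested.

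The stem-loop is shown for 1 abundant gene of each family, because its letters set these genes apart from other mRNAs. The sequences come from GRCm39, 5′ to 3′ on the strand of the gene, and the capitals mark the 6 paired bases on each side of the 4-base loop.
H1f5 (chr13:21964002-21964027, minus strand): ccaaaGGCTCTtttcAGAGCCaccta
H2ac8 (chr13:23754837-23754862, minus strand): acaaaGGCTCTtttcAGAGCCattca
H2bc18 (chr3:96177482-96177507, plus strand): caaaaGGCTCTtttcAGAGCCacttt
H3c3 (chr13:23929025-23929050, minus strand): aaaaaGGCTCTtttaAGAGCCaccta
H4c4 (chr13:23765928-23765953, plus strand): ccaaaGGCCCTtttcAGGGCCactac

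A stem-loop of this form, with a loop beginning TT, was found within 120 bases after the stop codon of 60 of the 67 genes, between 21 and 58 bases after it. The 60 genes used 6 different hairpins, of which the one in H1f5, H2ac8 and H2bc18 was shared by 39 genes. The H3c3 hairpin was found in 8 genes and the H4c4 hairpin in 8. No such hairpin was found for H2ac22, H2bc21, H2bc22, H2bc23, H2bc24, H3c8 and H4c1. In 26 of the 60 genes with a hairpin, the letters AATAAA, the usual poly(A) signal, also lay within 1000 bases after the stop codon. How often these letters lie there by chance or in other genes was not counted, and whether the sites are used was not tested.

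The promoters of 6 abundant members, with each family represented, are shown. Whether their motifs relate to the levels in the comparisons that follow was not tested. Each line gives the 150 bases before the RefSeq start of the gene, 5′ to 3′ on its strand. The windows came from the RefSeq promoter table (GRCm38.p6) and were placed by exact match on GRCm39, whose coordinates are printed. Capitals mark matches on either strand to the TATA box (TATAAA), the CCAAT box (CCAAT), the octamer (ATTTGCAT) and the H1 box (AAACACA).
H1f5 (chr13:21964796-21964945, minus strand): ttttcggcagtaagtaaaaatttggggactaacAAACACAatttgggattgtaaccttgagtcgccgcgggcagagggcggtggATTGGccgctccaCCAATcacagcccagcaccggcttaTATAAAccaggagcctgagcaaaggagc
H1f2 (chr13:23922640-23922789, plus strand): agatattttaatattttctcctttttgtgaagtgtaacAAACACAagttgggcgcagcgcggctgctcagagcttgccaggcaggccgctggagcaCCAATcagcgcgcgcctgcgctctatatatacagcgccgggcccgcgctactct
H2ac8 (chr13:23755395-23755544, minus strand): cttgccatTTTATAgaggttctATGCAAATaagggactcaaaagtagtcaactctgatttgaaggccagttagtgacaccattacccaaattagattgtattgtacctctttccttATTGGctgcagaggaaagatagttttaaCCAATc
H2bc18 (chr3:96176866-96177015, plus strand): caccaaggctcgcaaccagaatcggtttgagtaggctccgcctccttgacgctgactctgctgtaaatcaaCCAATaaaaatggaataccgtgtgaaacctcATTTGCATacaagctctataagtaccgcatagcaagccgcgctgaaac
H3c3 (chr13:23929505-23929654, minus strand): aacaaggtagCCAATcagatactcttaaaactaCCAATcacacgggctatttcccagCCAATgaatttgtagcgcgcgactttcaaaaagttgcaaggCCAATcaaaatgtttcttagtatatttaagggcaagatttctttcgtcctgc
H4c4 (chr13:23765401-23765550, plus strand): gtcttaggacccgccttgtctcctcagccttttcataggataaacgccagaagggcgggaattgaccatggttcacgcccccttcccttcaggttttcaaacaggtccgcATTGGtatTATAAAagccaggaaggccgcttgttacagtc

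Of the 67 genes, 57 had a window in the RefSeq table, and each motif was counted over the 250 bases before the start on both strands. CCAAT was present in 82.5% of these windows, against 34.5% of the 27025 windows of all genes. It was present in each of the 5 H1, 17 H2A and 14 H2B windows, in 8 of 10 H3 windows and in 3 of 11 H4 windows. TATAAA was found in 49.1% of the windows of histone genes and 13.0% of all windows. The octamer was present in 6 H2A and 6 H2B windows and in none of the other histone windows, or 21.1% against 1.61% of all windows. Windows of head-to-head H2A and H2B genes can overlap, as with 176 bases between the starts of H2ac8 and H2bc8. A site of any motif can then be counted for both genes, and how often this happened was not tested. The H1 box, added after the windows had been read, was present in 4 of 5 H1, 2 of 17 H2A and 2 of 14 H2B windows and in no H3 or H4 window, in all 8 of 57 histone windows against 6.22% of all windows.

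The genes lie in a few clusters. On GRCm39, 53 were on chromosome 13, between 21899933 and 24118834, and held 91.0% of the histone UMIs (unique molecular identifiers, one per captured mRNA). A further 10 were on chromosome 3, between 96127181 and 96177448, 3 on chromosome 11 and 1 on chromosome 6. Many members are near copies of each other, so that reads of one can be lost or counted for another. In 13 genes more than 80% of the 90-base stretches of the transcript were also found in other genes, and these had a median of 1.35 CPM (the usual abbreviation for counts scaled to a common total of UMIs per mouse). The median was 8.63 CPM in the 33 genes with 20 to 80% shared and 35.2 CPM in the 21 genes with less than 20% shared. Low values of single near-identical genes are therefore uncertain, and sums over each family are given beside them. A family sum adds UMIs already counted for its genes, so reads lost before counting are missing from it as well.

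All counts were summed over the cells of a mouse, which was the replicate. The time course kept 292 to 1045 cells and 1984426 to 13373185 UMIs per mouse, and the reporter libraries kept 278 to 1679 cells per mouse and population. UMIs per cell were higher in treated mice at 48 h (15086 ± 1340, SD, n = 9) than in untreated mice at 48 h (8421 ± 1015, n = 6), and lay between 6019 and 11358 in the mice of the other time course groups. GC B cell markers were present in every group, with summed levels between 4417 and 6571 CPM. Summed T cell markers were 102 to 151 CPM in treated and 135 to 225 CPM in untreated mice at 48 h, and all 5 of 7 such genes that were tested were lower with treatment. Summed naive or memory B cell markers were 99.9 to 204 CPM and 247 to 434 CPM in the same groups, with 4 of 6 lower. Summed plasma cell markers were 1419 to 2445 CPM and 967 to 1914 CPM, with 1 higher and 1 lower of 6, and GC B cell markers had 2 higher and 5 lower of 8. Summed myeloid markers were 5.53 to 22.1 CPM and 8.56 to 24.8 CPM, with none of the 2 tested genes called, and Fcgr1 was at 0 in the untreated mice. In the reporter libraries, T cell markers had a mean sum of 112 CPM in CDK2hi and 234 CPM in CDK2low samples, and naive or memory B cell markers 148 and 424 CPM. The part of these cells in the results was not tested. Of the cell barcodes, 6 were shared between the CDK2hi and CDK2low libraries and 94 between the time course libraries.

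The histone UMIs were concentrated in few genes. Over the 39 mice of the time course, H1 genes held 43.8% of the 1897842 histone UMIs, H2A genes 28.1%, H4 genes 12.4%, H3 genes 7.92% and H2B genes 7.76%. The 12 genes with the highest mean CPM held 86.3%. They were the linker histone genes H1f5, H1f4, H1f2, H1f1 and H1f3, the H2A genes H2ac8, H2ac4 and H2ac20, the H2B gene H2bc18, the H3 genes H3c6 and H3c3, and the H4 gene H4c4. Within H4, H4c4 alone held 88.6% of the UMIs, whereas H2bc18 held 30.2% of those of H2B. The linker histone genes shared 0 to 27.9% of their 90-base stretches with other genes. H4c4 shared 0.86%, and the other H4 genes ran from 0% in H4c14 to 88.5% in H4c17. How far reads lost from near copies shaped the shares of families and genes was not tested. H1f5 had the highest mean level (1426 CPM), followed by H1f4 (938), H4c4 (828), H2ac8 (768) and H2ac4 (548). At the other end, 11 genes did not pass the filter on low counts in the time course, and H2bc1 and H2bc23 had no UMI. The others were H2ac1, H2ac19, H2ac23, H2ac25, H3c10, H3c13, H3c14, H3c15 and H4c17, with 1 to 235 UMIs each. Among genes with UMIs, mean levels ran from 0.00498 CPM in H2ac19 to 768 CPM in H2ac8, from 1.67 CPM in H2bc24 to 174 CPM in H2bc18, from 0.156 CPM in H3c15 to 267 CPM in H3c6 and from 0.543 CPM in H4c17 to 828 CPM in H4c4, as the plot of mean levels by gene shows.

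**Figure D1:**
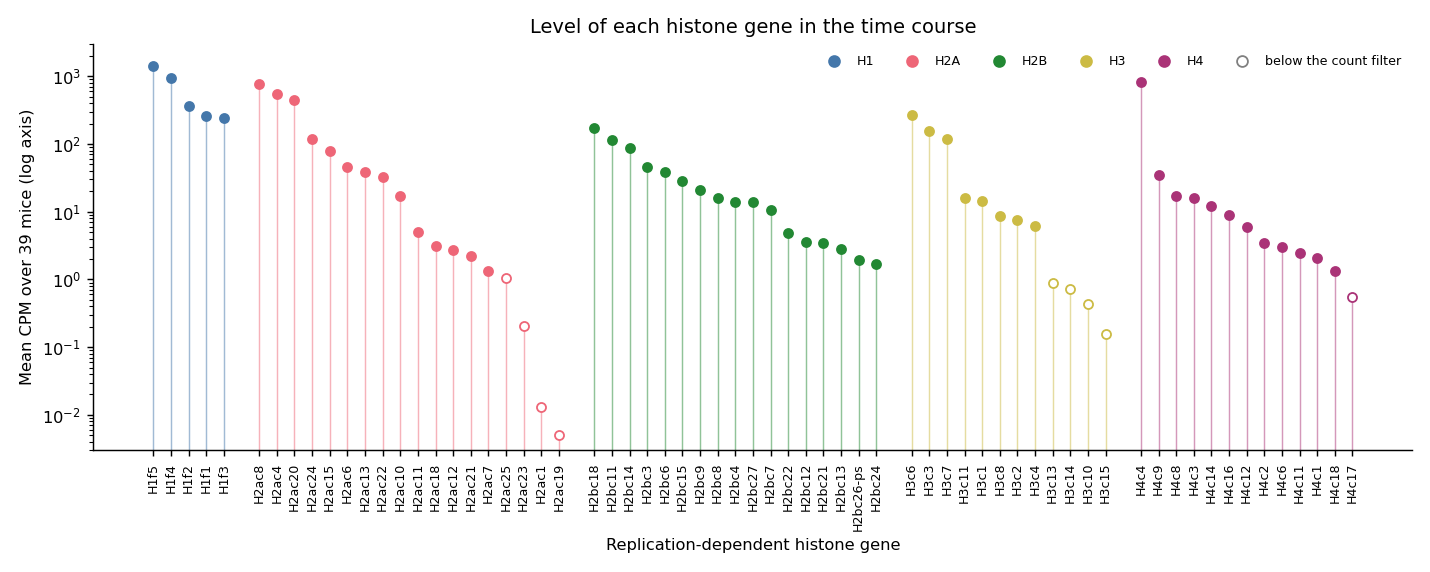
Mean CPM (log axis) of each histone gene over the 39 mice of the time course, ordered by falling level within its family and coloured by family, with open circles for genes below the count filter. H1f5 is highest at 1426 CPM, H4c4 stands far above the other H4 genes, and the 2 genes without UMIs are not drawn.

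H2A and H2B genes often lie head to head and share 1 promoter region. In the 12 such pairs, with 176 to 306 bases between the starts, the H2A gene had the higher mean CPM in 8. In 2 of the 8 the partner, H2bc1 or H2bc23, had no UMI, and in H2bc23 and H2bc24 100% of the 90-base stretches were shared with other genes, so that these pairs are uncertain. H2ac8 reached 768 CPM and its partner H2bc8 16.2, and H2ac20 reached 443 and H2bc21 3.45. The order was the other way in the pair of H2ac11 (5.06 CPM) and H2bc11 (115 CPM). In H2ac11, 76.8% of the 90-base stretches were shared with other genes.

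Histone transcripts were higher at 48 h after anti-DEC-OVA in all 5 families. The first comparison asked how their level changed while treated cells were dividing at 48 h. Summed over the 67 genes, the lowest, median and highest treated mouse had 7504, 10809 and 11981.5 CPM, and the corresponding untreated mice had 5323, 6252 and 7925 CPM. The ranges overlapped only across experiments. In the first experiment, treated mice lay between 10804 and 11981.5 CPM and untreated mice between 5323 and 7925 CPM, and in the second between 7504 and 7777 CPM and between 5942 and 6060 CPM. Expressed per cell, treated mice had 154 ± 39.1 histone UMIs (SD, n = 9) and untreated mice 55.0 ± 14.2 (n = 6). A sum per mouse cannot tell a larger share of cells with histone mRNA from more histone mRNA per cell.

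**Figure D2:**
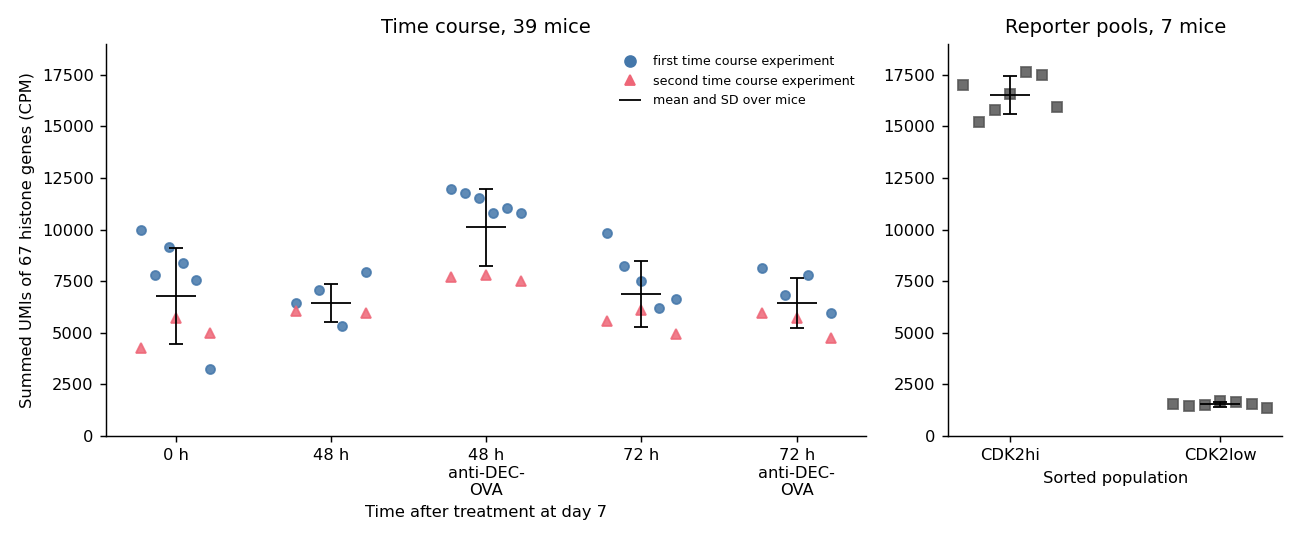
Summed UMIs of the 67 histone genes (CPM) in each mouse of the time course (left) and in the CDK2hi and CDK2low populations (right), with black bars for the mean and SD and symbols for the experiment. Treated mice at 48 h lie above the untreated mice of their own experiment, and CDK2hi samples (15234 to 17645.5 CPM) lie far above CDK2low samples (1366 to 1694 CPM).

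By family, treated over untreated means at 48 h were 1.64 for H1, 1.49 for H2A, 1.54 for H2B, 1.54 for H3 and 1.505 for H4. H1 sums were 4525 ± 831 CPM in treated mice (SD, n = 9) and 2753 ± 493 CPM in untreated mice (n = 6). Within the first experiment the 5 ratios lay between 1.58 and 1.79, and within the second between 1.24 and 1.32. H2A sums were 2762 ± 329 and 1856 ± 183 CPM, and their ranges did not overlap even across experiments. For H2B the ranges also stayed apart, narrowly, with 585 CPM in the lowest treated and 576 CPM in the highest untreated mouse. The ratios were thus close to each other, with no test made between families. The share of H1 in the histone UMIs was 43.4 to 46.2% in treated and 39.5 to 45.0% in untreated mice, with overlapping ranges.

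Of the 56 genes that passed the filter, 50 were higher and none lower in treated mice at 48 h (edgeR quasi-likelihood test with Benjamini-Hochberg adjustment over all genes, threshold 0.05). The background was high, since 47.4% of the 10220 genes tested were called in either direction and 26.3% were higher. The median log2 fold change was 0.58 over the 56 genes and 0.01 over all genes. The 6 genes not called were H2ac21 (0.41), H2bc13 (0.43), H2bc24 (0.42), H4c6 (0.49), H4c8 (0.26) and H4c18 (0.17, the lowest log2 fold change of all), and each was also above 0. Counts by family were 5 of 5 for H1, 13 of 14 for H2A, 15 of 17 for H2B, 8 of 8 for H3 and 9 of 12 for H4.

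The 5 linker histone genes were all higher. H1f5 was at 1386, 2242 and 2586 CPM in the lowest, median and highest treated mouse and at 936, 1108 and 1652 CPM in the untreated mice. The groups overlapped across experiments but not within the first (2188 to 2586 against 936 to 1652 CPM) or the second (1386 to 1484 against 969 to 1099 CPM). Its log2 fold change was 0.83 ± 0.15 (SE, adjusted p = 1.92e-05, edgeR).

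H1f4 was at 1059, 1313 and 1473 CPM in treated and at 600, 834 and 964 CPM in untreated mice, with no overlap (log2 fold change 0.72 ± 0.13, adjusted p = 2.15e-05, edgeR). H1f1 was at 284, 401 and 450 CPM and at 175, 210 and 263 CPM, again with no overlap, and had the highest log2 fold change of all histone genes (0.92 ± 0.14, adjusted p = 8.29e-07). H1f3 followed with 272, 324 and 382 CPM against 151, 218 and 259 CPM (0.69 ± 0.15, adjusted p = 0.000209). All treated mice were above all untreated mice for these 3 genes. H1f2 had 326, 495 and 562 CPM in treated and 241, 327 and 427 CPM in untreated mice, groups that overlapped. Its log2 fold change was 0.54 ± 0.11 (adjusted p = 0.000155), the lowest of the H1 genes, and in the second experiment alone it was 0.23 (adjusted p = 0.118) and not called.

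The abundant H2A genes encode core histones that pair with H2B. H2ac8 was at 894, 977 and 1046 CPM in treated mice and at 538, 676 and 861 CPM in untreated mice, with no overlap (log2 fold change 0.55 ± 0.13, adjusted p = 0.000468, edgeR). H2ac4 was at 633, 727 and 785 CPM and at 387, 509 and 534 CPM, also with no overlap (0.63 ± 0.13, adjusted p = 7.64e-05). H2ac20, from the chromosome 3 cluster, was at 395, 706 and 793 CPM and at 313, 347 and 505 CPM, where the treated mice of the second experiment fell within the range of untreated mice (0.79 ± 0.15, adjusted p = 2.23e-05). Within H2A the log2 fold change reached 0.89 in H2ac22, one of the genes without a hairpin.

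H2bc18, the most abundant H2B gene and also on chromosome 3, was at 173, 264 and 285 CPM in treated and at 120, 142 and 179 CPM in untreated mice. The 2 groups overlapped only between experiments, and the log2 fold change was 0.79 ± 0.12 (adjusted p = 1.47e-06, edgeR). Of the H3 genes, H3c6 was at 236, 395 and 442 CPM against 192, 231 and 280 CPM (0.64 ± 0.12, adjusted p = 1.74e-05). H3c3 was at 82.4, 261 and 307 CPM against 68.5, 144 and 187 CPM (0.68 ± 0.13, adjusted p = 5.50e-05). For both genes the treated mice of the second experiment lay within the range of untreated mice, and within each experiment the groups did not overlap. H3c3 differed more between experiments than between treated and untreated mice of 1 experiment, with 251 to 307 CPM in the treated mice of the first and 82.4 to 86.3 CPM in those of the second. In the second experiment alone it was not called (log2 fold change 0.35, adjusted p = 0.0595).

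H4c4, which held most of the counted H4 UMIs, was at 600, 1293 and 1425 CPM in treated and at 478, 766 and 980 CPM in untreated mice. It too was lower in the second experiment, and within each experiment the groups did not overlap. Its log2 fold change was 0.63 ± 0.13 (adjusted p = 0.000107, edgeR). Fitted on its own, the first experiment gave 45 of 56 genes called, with a median log2 fold change of 0.67 and 37.9% of all genes called. The second, with 3 treated and 2 untreated mice at 48 h, gave 15 of 54 with a median of 0.39 and 20.8% of all genes called, and none of the calls was lower. Cells with 10% or more mitochondrial UMIs, which were left out, were 350 of 13976 assigned cells in the first experiment and 3114 of 13187 in the second. Their part in the weaker result was not tested.

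By 72 h the difference from untreated mice was no longer detected. Summed levels were 4748, 5964 and 8154 CPM in the lowest, median and highest treated mouse and 4954, 6416 and 9857 CPM in untreated mice, with wide overlap. None of the 56 genes was called (edgeR), 3 had an unadjusted p under 0.05, DESeq2 called none, and 8.55% of all genes were called. The log2 fold changes of the 12 most abundant genes ran from -0.15 in H2ac8 to 0.02 in H2ac20, with SEs between 0.11 and 0.15. Treated over untreated means of the family sums lay between 0.897 for H3 and 0.961 for H4 within the first experiment and between 0.940 for H4 and 1.03 for H1 within the second. Pooled over the experiments, which held different shares of the 2 groups and differed in level, they lay between 0.889 for H3 and 0.952 for H1.

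**Figure D3:**
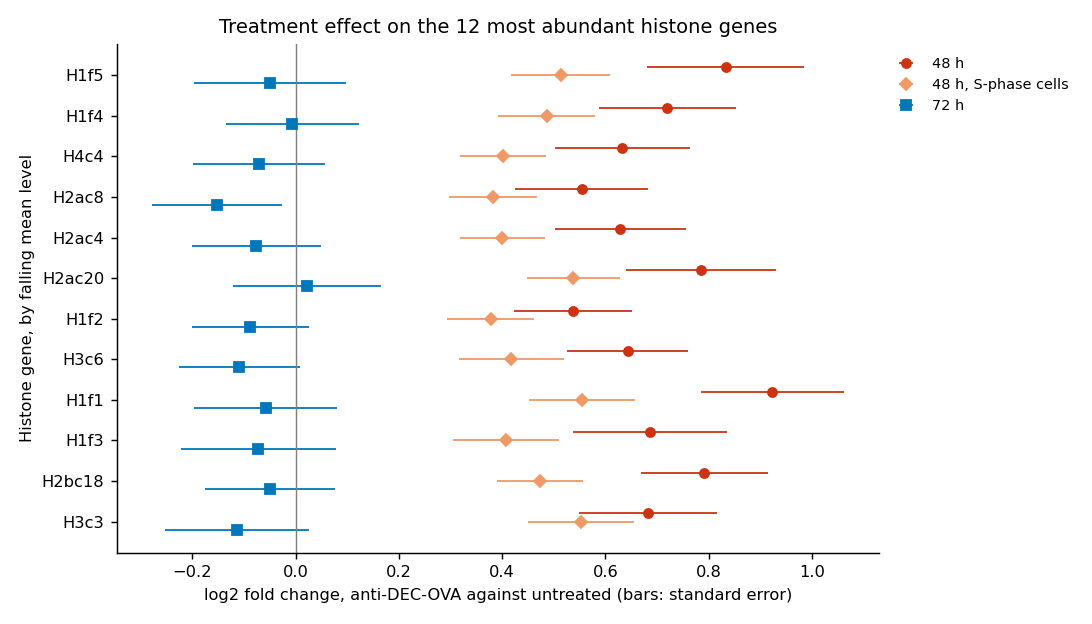
log2 fold change with its standard error, anti-DEC-OVA against untreated mice, for the 12 most abundant histone genes at 48 h over all cells (circles), at 48 h over S-phase cells (diamonds) and at 72 h (squares). At 48 h all 12 lie between 0.54 and 0.92, in S-phase cells between 0.38 and 0.55, and at 72 h between -0.15 and 0.02.

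The difference between the effects at 48 h and 72 h was tested as an interaction. It was above 0 and called in 38 of 56 genes, with none below (edgeR), against 31.5% of all genes in either direction and 18.5% above 0. All 12 abundant genes were called, from 0.62 ± 0.16 (log2, SE) in H1f2 to 0.98 ± 0.20 in H1f1. Only 4 of 12 tested H4 genes were called, among them H4c4 (0.70 ± 0.18, adjusted p = 0.00285). The first experiment alone gave 34 of 56 with 21.6% of all genes called. The second alone lost most calls and gave 2 of 54 (H1f1 and H4c9, named after their values were seen) with 7.43% of all genes called, and 49 of the 54 were above 0.

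Treated mice at 48 h were also compared with treated mice at 72 h, which shares the 48 h treated mice with the comparison above. Of the 56 genes, 49 were higher at 48 h and none lower (edgeR), where 49.1% of all genes were called and 26.8% were higher at 48 h. Log2 fold changes ran from 0.17 in H2bc27 to 0.92 in H3c8. Untreated mice did not differ detectably from mice at 0 h. None of the 56 genes was called at 48 h (0.127% of all genes called, 2 genes with an unadjusted p under 0.05) or at 72 h (4.41%, 1 gene), and DESeq2 called none in either. Mice at 0 h spanned 3241 to 9998 CPM in the summed level. The lowest had 63.1% of its cells in G0-G1 and the highest levels of summed T cell (262 CPM) and naive or memory B cell markers (540 CPM) at 0 h. Its part in the results was not tested beyond leaving it out, which gave 49 of 56 genes called at 48 h, 38 in the interaction and none at 72 h, against 48.6%, 32.5% and 9.19% of all genes.

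Cell cycle phases were called from S-phase and G2-M gene lists that hold no histone gene of the set. G0-G1 cells were those with low scores for both lists. The histone level differed widely between these phases. In G0-G1 cells, the summed level was 407, 505 and 767 CPM in the lowest, median and highest of the 39 mice. In S-phase cells it was 3652, 6380 and 9600 CPM, and in G2-M cells 6505, 11161 and 15396 CPM. No G0-G1 value overlapped with a value in the other phases, and the ratio of S to G0-G1 cells of the same mouse was 12.8 ± 2.84 (SD, n = 39), from 7.41 to 18.02. G0-G1 cells held at most 2.10% of the histone UMIs of a group, S-phase cells 28.1 to 30.8% and G2-M cells 67.5 to 71.5%. The calls rest on scores alone, and whether cells called G2-M had ended DNA synthesis was not tested.

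**Figure D4:**
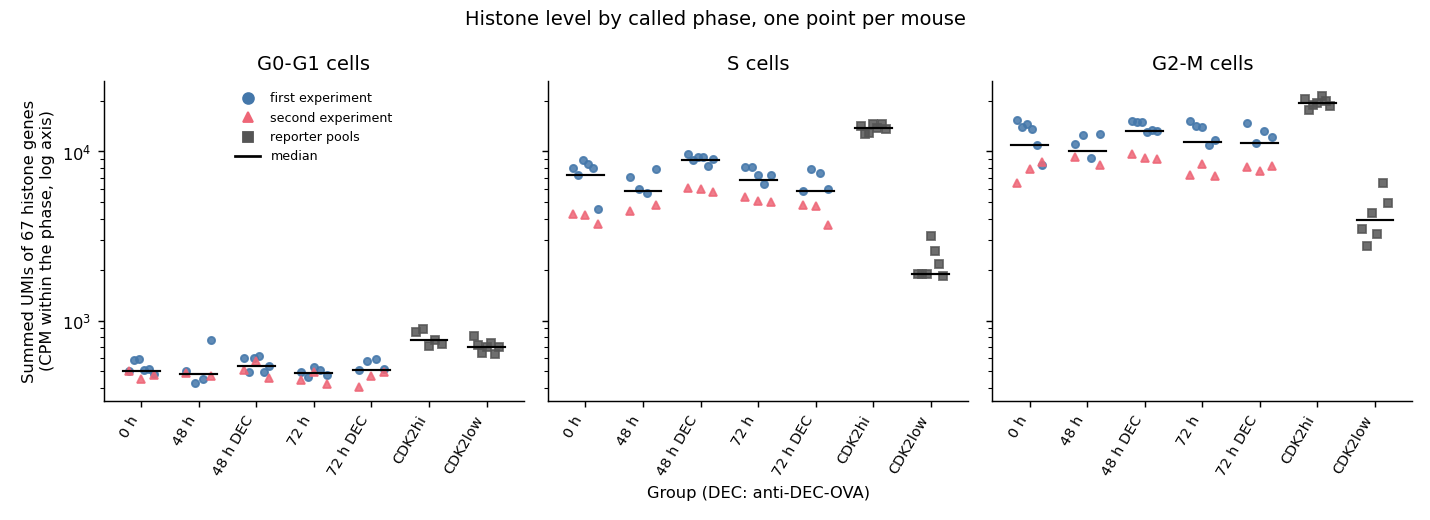
Summed UMIs of the 67 histone genes as CPM within G0-G1, S and G2-M cells (log axis), 1 point per mouse with at least 20 cells in the phase and black lines for the median of each group. G0-G1 cells of the time course stay at or below 767 CPM in every group, whereas S and G2-M cells lie at or above 3652 CPM. CDK2low cells called S or G2-M lie below CDK2hi cells with the same call.

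All 32 genes that passed the filter in the fit of S against G0-G1 cells of the same mouse were higher in S (edgeR), where 84% of 8498 genes were called and 39.5% were higher. Of these 32, only H1f2 and H1f4 had at least 10 UMIs in G0-G1 cells of every mouse, so most genes passed through their S-phase level and the count is a description. The log2 fold changes of these 2 genes were 1.77 ± 0.04 (SE) for H1f2 and 2.47 ± 0.04 for H1f4. The text gives the others by their levels alone, and the plot of these genes against the reporter populations shows their log2 fold changes as a description. H1f1 had a median of 5.29 CPM in G0-G1 and 287 CPM in S-phase cells over the 39 mice, and H1f3 8.67 and 267 CPM. H2ac8 was at 16.4 and 631 CPM, H2ac4 at 6.97 and 442 CPM and H4c4 at 69.0 and 730 CPM. H3c3 was at 1.52 and 131 CPM and had no UMI in G0-G1 cells of at least 1 mouse.

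H1f4 and H1f2 made up a larger part of the histone UMIs in G0-G1 cells than in the other 2 phases, which were close to each other. In G0-G1 cells, H1f4 was at 109, 156 and 239 CPM in the lowest, median and highest mouse and H1f2 at 43.3, 93.4 and 156 CPM. H1f5, the most abundant gene in cycling cells, was at 14.04, 26.5 and 43.8 CPM there, and at 697, 1370 and 2234 CPM in S-phase cells. H1f2 and H1f4 together held 49.0 ± 3.75% (SD, n = 39) of the histone UMIs of G0-G1 cells, 17.7 ± 1.77% of those of S-phase cells and 17.1 ± 1.44% of those of G2-M cells. The lowest G0-G1 value (40.1%) was above the highest S-phase (21.2%) and G2-M value (19.9%), and the S-phase and G2-M ranges overlapped. Free RNA in the droplets was not tested.

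Phase shares differed between treated and untreated mice at 48 h, and the relation of these shares to the histone level was not tested. G0-G1 cells were 11.1 to 19.1% of the cells of treated and 37.4 to 51.1% of those of untreated mice. S-phase cells were 32.0 to 40.2% and 20.7 to 27.04%, and G2-M cells 44.8 to 55.8% and 27.4 to 41.7%. None of these ranges overlapped. After each cell was thinned to 2871 UMIs, which left out 281 of 6053 treated and 532 of 3924 untreated cells, G0-G1 shares were 7.83 to 19.1% and 27.4 to 51.5%. The thinned S-phase shares nearly touched, at 31.79 to 38.8% and 21.1 to 31.76%, and the thinned G2-M shares overlapped, at 45.8 to 57.3% and 27.02 to 46.5%. At 72 h the G0-G1 share was 25.3 to 49.1% in treated and 34.0 to 48.7% in untreated mice.

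The 48 h comparison was therefore repeated within phases. Among S-phase cells, 26 of 42 tested genes were higher in treated mice and none lower (edgeR), against 15.1% of all genes called and 7.83% higher. The median log2 fold change was 0.40, and all 12 abundant genes were called, from 0.38 ± 0.08 (SE) in H1f2 to 0.55 ± 0.10 in H1f1. Among G2-M cells, 11 of 52 genes were higher and none lower, with 19.8% of all genes called, 10.6% higher, and a median of 0.21. H1f1 (0.54), H1f5 (0.42), H1f4 (0.34), H2bc18 (0.38), H2ac20 (0.37) and H3c6 (0.22) were among them. The remaining 6 of the 12 abundant genes were not called, with log2 fold changes of 0.25 in H1f3, 0.21 in H4c4, 0.19 in H3c3, 0.18 in H2ac4, 0.17 in H1f2 and 0.08 in H2ac8 and adjusted p between 0.0793 (H4c4) and 0.543 (H2ac8) by edgeR. Among G0-G1 cells, none of 12 tested genes was called by edgeR or DESeq2, 1 (H1f4) had an unadjusted p under 0.05, and 4.94% of all genes were called. In S-phase cells at 72 h none of 42 genes was called by edgeR, with 15 at an unadjusted p under 0.05 and 4.98% of all genes called. Their log2 fold changes had a median of -0.20. Whether treated and untreated S-phase cells sat at the same point of S phase was not tested.

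Histone levels also differed widely between the reporter populations. The summed level was 15234, 16596 and 17645.5 CPM in the lowest, median and highest CDK2hi sample and 1366, 1531 and 1694 CPM in the CDK2low samples of the same 7 mice. Every CDK2hi sample was above every CDK2low sample. The ratio within a mouse was 10.8 ± 0.59 (SD, n = 7). By family it was 16.5 ± 1.65 for H2A, 12.5 ± 1.44 for H2B, 11.7 ± 0.63 for H3, 9.96 ± 0.39 for H4 and 8.20 ± 0.54 for H1. Per cell, CDK2hi samples had 182 ± 17.0 histone UMIs and CDK2low samples 20.6 ± 2.97, although CDK2low cells had more UMIs in all (13409 ± 1270 against 10973 ± 739). G0-G1 cells were 4.76 ± 1.35% of CDK2hi and 60.8 ± 3.85% of CDK2low cells.

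All 57 genes that passed the filter were higher in CDK2hi cells in a fit with a term for the mouse (edgeR), where 75.1% of 10120 genes were called and 36.5% were higher. Of the 57, 31 had at least 10 UMIs in each CDK2low sample, so the others passed mainly through CDK2hi cells. Over these 31 genes the log2 fold changes ran from 2.40 ± 0.03 (SE) in H1f2 to 4.61 ± 0.05 in H2ac24, with a median of 3.74 (all genes -0.02). Of the abundant genes, H3c3 had the highest log2 fold change (4.58 ± 0.04), from 12.6 to 18.1 CPM in CDK2low and from 289 to 337 CPM in CDK2hi samples. H2ac4 (4.54) and H2ac8 (4.48) followed. H2ac8 was at 85.3, 96.3 and 125 CPM in the lowest, median and highest CDK2low sample and at 1829, 1944 and 2094 CPM in CDK2hi samples.

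The linker histone genes again fell apart. H1f5 (4.002 ± 0.03, log2 and SE), H1f1 (3.90 ± 0.04) and H1f3 (3.76 ± 0.06) had log2 fold changes near the median, and H1f4 (2.80 ± 0.03) and H1f2 (2.40 ± 0.03) had lower ones. H1f5 was at 142, 177 and 196 CPM in the lowest, median and highest CDK2low sample, and H1f4 at 288, 316 and 343 CPM. In CDK2hi samples the values were 2021, 2355 and 2652 CPM for H1f5 and 1798, 1895 and 2059 CPM for H1f4. H1f2 and H1f4 together held 32.4 ± 1.88% of the histone UMIs in CDK2low and 16.6 ± 0.38% in CDK2hi samples (SD, n = 7). All H1 genes together held 46.9 to 51.3% in CDK2low and 36.7 to 38.7% in CDK2hi samples, and neither pair of ranges overlapped. The 6 H4 genes with at least 10 UMIs in each CDK2low sample ran from 2.77 in H4c16 to 3.69 in H4c8, with H4c4 at 3.55 ± 0.02.

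**Figure D5:**
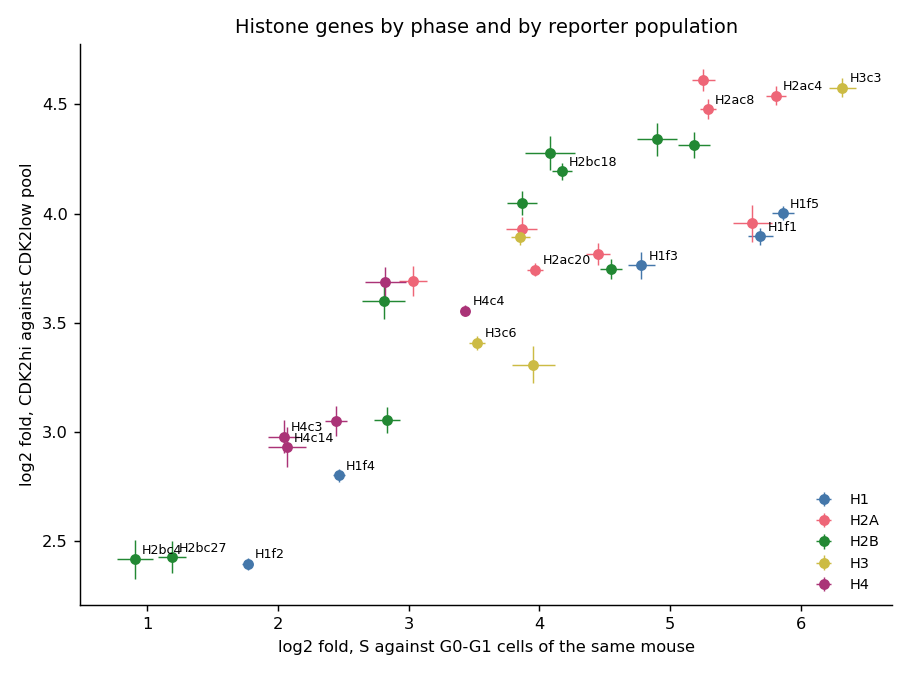
log2 fold change of each of 32 histone genes between S and G0-G1 cells of the same mouse (horizontal) and between CDK2hi and CDK2low cells (vertical), with standard errors and colours for the family. H1f2 and H1f4 lie at the lower left together with H2bc4, which is furthest left (0.91 horizontal, 2.42 vertical). H1f2 and H1f4 are the only genes with at least 10 UMIs in G0-G1 cells of every mouse. The other genes did not reach this in every mouse, so their horizontal positions are uncertain. The points come from separate mice on the 2 axes.

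The 2 reporter populations differed within a called phase as well. CDK2low cells called S had 1832 to 3154 CPM of histone UMIs and CDK2hi cells called S had 12638 to 14521 CPM (7 samples each). In G2-M the values were 2743 to 6489 CPM (6 CDK2low samples with at least 20 cells) and 17567 to 21401 CPM (7 CDK2hi samples). In G0-G1, by contrast, the ranges overlapped, with 634 to 816 CPM in 7 CDK2low samples and 706 to 894 CPM in 5 CDK2hi samples. No test of these values was made. The phases were scored over both libraries together, and 31.9 ± 2.67% of CDK2low and 37.1 ± 3.44% of CDK2hi cells were called S (SD). Whether the CDK2low cells called S or G2-M were in that phase was not tested.

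Genes that act on histone mRNA or protein were counted beside the set. Of 18 genes for histone mRNA processing and histone gene transcription, 10 were higher and none lower in treated mice at 48 h (edgeR), with a median log2 fold change of 0.19, against 26.3% of all genes higher and 47.4% called. Slbp, which encodes the stem-loop binding protein, was at 298, 342 and 364 CPM in the lowest, median and highest treated mouse and at 230, 264 and 281 CPM in untreated mice, with no overlap (log2 fold change 0.44 ± 0.06, SE). Lsm11, a subunit of the U7 particle that processes histone mRNA, rose by 0.35 ± 0.09, Ncbp1 of the cap-binding complex by 0.30 ± 0.06 and Npat, the coactivator of histone genes, by 0.18 ± 0.05. At 72 h none of the 18 was called. In CDK2hi cells 16 were higher, and Cstf3, a cleavage factor subunit named after its value was seen, was lower, where 36.5% of all genes were higher and 75.1% called. Slbp differed there by 0.94 ± 0.03 on the log2 scale, less than each of the 31 histone genes with at least 10 UMIs in each CDK2low sample. Slbp is also among the S-phase genes that set the phases. The same holds for Nasp in the next list, and Cenpa, given further below, is among the mitotic genes.

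Of 21 histone chaperone and import genes, 16 were higher at 48 h and Atrx, named after its value was seen, was lower (edgeR), against 26.3% of all genes higher. Asf1b, a chaperone of H3 and H4, was at 152, 218 and 230 CPM in treated and at 107, 146 and 167 CPM in untreated mice, with overlap only across experiments (log2 fold change 0.59 ± 0.08, SE, edgeR). Hat1, which acetylates new H4, rose by 0.49 ± 0.07 and Nasp, which binds H1 and H3-H4, by 0.46 ± 0.08. At 72 h none of the 21 was called, and in CDK2hi cells 19 were higher and Cabin1, likewise named afterwards, was lower, against 36.5% of all genes higher. Of 43 S-phase genes, 42 were higher at 48 h, among them Rrm2 (0.74), Tipin (0.63) and Tyms (0.61), and of 54 mitotic genes 53 were higher, among them Aurka (0.73), Tubb4b (0.60) and Bub1 (0.59), against the same 26.3% of all genes.

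Histone genes that are expressed outside replication served as a further comparison. Of 10 tested, 7 were higher at 48 h and H1f10, H2aj and H3f3a were not called (edgeR), against 26.3% of all genes higher. H2az1, an H2A variant, rose by 0.56 ± 0.09 (log2, SE) and Cenpa, the H3 variant of centromeres, by 0.36 ± 0.08. H1f0, a linker histone of cells that have stopped dividing, also rose, by 0.38 ± 0.11. In H1f0 the interaction of treatment and time was 0.04 ± 0.17 (adjusted p = 0.886), against 0.62 to 0.98 in the 5 replication-dependent H1 genes. H1f0 was the only one of the 10 that was lower in S-phase than in G0-G1 cells, and fell by 0.43 on the log2 scale. It was nonetheless higher in CDK2hi than in CDK2low cells by 0.42 ± 0.04 in the fit. Its ranges overlapped there, with 93.0 to 121 CPM in CDK2hi and 75.1 to 98.2 CPM in CDK2low samples. All 10 were higher in CDK2hi cells, against 36.5% of all genes, with a median log2 fold change of 1.10.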

How the data were processed

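The authors deposited UMI counts per gene, hashtag and cell, made with CellRanger 8.0.1 (per the file headers) on mm39 and not normalized. The submitters' processing notes also list Cell Ranger 6.0.1 and Seurat 5.1.0. The annotation version is not given in the sources used here.

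Cells were given to mice by their hashtag antibodies, with HTODemux (Seurat 5.3.0) and a positive quantile of 0.99 for the cutoffs. A cell was used if its positive hashtags were exactly those of a single mouse and it had at least 200 genes and under 10% mitochondrial UMIs. In the time course a mouse carried more than 1 hashtag, and cells positive for only part of them were not used. The time course experiments kept 13625 and 10073 cells and the CDK2hi and CDK2low libraries 7448 and 4385. Cells with more positive hashtags than 1 mouse carried (1936, 2705, 975 and 507) were dropped, and doublets within a mouse could not be seen this way. Groups of mice were taken from the deposited hashtag index, in which 9 mice are listed for the reporter experiment. Hashtags 11 and 12 of 2 of these were nearly absent, and 7 mice were used, paired between populations by name. Hashtag 5, which the index does not list, held 1.29% of the hashtag UMIs of the CDK2hi and 2.48% of the CDK2low library, and cells positive for it were given to no mouse. Whether the index names every mouse rightly was not tested. Of the cells kept, 9208, 4369, 4691 and 2719 had the B1-8hi chain pairing.

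Counts were summed per mouse and tested over all genes by the quasi-likelihood test of edgeR 4.0.16 under R 4.3.3, after its filterByExpr and TMM steps, at a Benjamini-Hochberg threshold of 0.05, with a term for the experiment in the time course and for the mouse in the reporter and phase comparisons. SEs were derived from the F statistic. CPM is relative to all UMIs of a mouse. Phases were scored with scanpy 1.11.5 (43 S and 54 G2-M genes) and used for mice with at least 20 cells in the phase. Families were summed without a test. On simulated counts for the 48 h comparison (10220 genes), 86 of 100 genes changed by 0.5 (log2) and 100 of 100 changed by 1 were recovered with 7 false calls, and for the reporter comparison (10120 genes) 94 and 100 with 13. Far fewer genes were changed there than the 47.4% and 75.1% called in the data, and none of them had low mean counts. Recovery of low genes, or with so many genes changed, was not tested.

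The gene set, whose members are defined by symbol, and the gene lists were chosen with earlier results of these data known. The 12 genes with the highest mean CPM over the time course are given in full, members below the filter by name or UMIs, and other members by range, count or extreme value. Of each further list, Slbp, Npat and the 3 genes with the largest absolute log2 fold change among those called at 48 h are named. Other names were chosen after their values were seen. Alternatives were DESeq2 1.42.0, RLE size factors, no filter on counts or cells, other hashtag assignment, B1-8hi pairing only, thinned cells, no term for experiment or mouse, only the groups compared and each experiment alone. Fits in G2-M and G0-G1 cells at 48 h, in S-phase cells at 72 h, and without the lowest 0 h mouse were added after seeing the data.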

Additional observations from a re-analysis of the deposited data

Results flagged for a closer look

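In 14 cases a value stood apart. H1f3 at 72 h was 341 CPM in 1 untreated mouse of the first experiment and 181 to 248 CPM in the other 7, a gap larger than Dixon's 95% limit. The share of H1 in the histone UMIs was 38.7% in 1 CDK2hi sample and 36.7 to 37.5% in the other 6, again past that limit. These were 2 of 133 groups examined, and chance flags about 1 in 20.

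The effect of anti-DEC-OVA differed between 48 h and 72 h in each of the 12 most abundant histone genes, by the interaction term of the edgeR fit. The difference of the log2 fold changes was 0.98 for H1f1, 0.88 for H1f5, 0.76 for H1f3, 0.73 for H1f4 and 0.62 for H1f2. It was 0.76 for H2ac20, 0.71 for H2ac4 and 0.71 for H2ac8. In the remaining genes it was 0.84 for H2bc18, 0.80 for H3c3, 0.75 for H3c6 and 0.70 for H4c4. In the second experiment alone, 2 of 54 histone genes passed the threshold in this test, with 6 treated and 5 untreated mice, where 7.43% of 10334 genes passed it, so that the count was not above the background there. The difference was above 0 in 49 of the 54 genes in that experiment, with a median of 0.45, against 0.73 over the 56 genes in both experiments.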

How the results depend on the processing

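The 48 h log2 fold changes of the 12 most abundant genes stayed above 0 under each alternative run. Where no histone gene was called, directions did change. The median log2 fold change of untreated mice at 48 h against 0 h was -0.08, but 0.29 in the second experiment alone. At 72 h against 0 h it was 0.03, but -0.01 without a term for the experiment, -0.05 in the first experiment alone and -0.03 without the lowest 0 h mouse. In G0-G1 cells at 48 h it was 0.11, but -0.11 without the filter on low counts and -0.10 with phases from thinned cells. In thinned cells the 72 h ratios of H1, H2B and the sum of the 67 histone genes moved from below 1 to 1.03, 1.02 and 1.001. Of the counts and family ratios 170 stayed within their limits and 25 moved. Without a term for the experiment, genes called were 30 of 56 at 48 h, 27 for treated mice at 48 h against 72 h and 15 in the interaction, against 26.2%, 30.4% and 12% of all genes, and H4c4 and H3c3 at 48 h lost their calls (adjusted p = 0.114 and 0.197). The second experiment alone gave 15, 22 and 2 of 54, against 20.8%, 25.7% and 7.43% of all genes called, and H1f2 and H3c3 lost theirs. Thinned cells gave 30 of 41 for treated mice at 48 h against 72 h (29.5% of all genes). For S against G0-G1 cells, 59 of 64 genes were called with no filter on low counts (54.7% of all genes) and 21 of 21 with phases from thinned cells (75.6%), which gave 16 of 27 among S-phase cells at 48 h (9.35%). Without the filter, 3 of 63 genes were called in G0-G1 cells at 48 h (1 higher, 2 lower, with 4.57% of all genes called) and 9 of 64, all lower, in S-phase cells at 72 h (3.89%), where B1-8hi cells alone gave 2 of 41, both lower (3.85%). Thinning moved the 48 h ratio of H2A to 1.74. CDK2hi over CDK2low ratios were 9.36 (H1), 20.7 (H2A), 15.1 (H2B), 14.3 (H3), 11.5 (H4) and 12.8 (67 histone genes) in thinned cells, and 8.85 (H1), 17.7 (H2A), 13.7 (H2B), 12.4 (H3) and 11.7 (67 histone genes) in B1-8hi cells. The causes were not tested. Populations of a mouse were paired through the mouse itself, and with no replicate block 57 of 57 genes were still called.

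Leaving out each mouse of the reporter pools in turn was not run, because each pool held 7 mice. Oligo-dT priming and near-identical copies limit what single low genes show. In simulated counts for the 48 h comparison, 86 of 100 genes changed by 0.5 (log2) were recovered. The reporter result rests on 1 library per population. CPM is relative, so a change in all UMIs per cell is not seen in it.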
